A study of Homo sapiens with 9 samples.

Results

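Acid-base transporters and carbonic anhydrases were examined in AGS cells, an established human gastric cancer line, after stable loss of HIF1A. The group held 9 genes: the carbonic anhydrases CA2, CA9, CA12 and CA13, the sodium-proton exchanger SLC9A4, the bicarbonate transporters SLC4A2 and SLC4A4, and the monocarboxylate transporters SLC16A1 and SLC16A3. CA2 and SLC9A4 were chosen from a lower HIF-KD signal seen in replicate 3 of these data. The other 7 were chosen by function, with earlier results of these data known. Members were found by gene symbol among 20072 named genes, and 6 of the 9 had a named probe. CA9, SLC16A1 and SLC16A3 were not analysed here.

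HIF-KD cells carried a stably transduced, lentiviral small hairpin RNA against HIF1A, and Scrambled cells carried a control hairpin in the same way. Both lines were AGS cells. The paper names normoxia for its growth and labelling experiments, and the oxygen level of the cultures on the arrays is not given in the sources used here. Whether a line was 1 clone or a pool of cells is not given there either. There were 3 biological replicates per line on 9 arrays: replicates 1 and 2 on HumanRef-8 arrays, and replicate 3 on HumanHT-12 arrays with 3 HIF-KD and 2 Scrambled technical arrays, so array version and replicate cannot be told apart. The p-values, SEs and intervals rest on the differences within replicates, with their spread drawn by limma toward that of all probes. For a probe with a wide spread, such as that of CA2, they are narrower than its own differences would give. The labels do not describe the replicates as separate cultures.

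Carbonic anhydrases interconvert carbon dioxide and water with bicarbonate and protons, either in the cytosol or, for CA9 and CA12, outside the cell. Sodium-proton exchangers and monocarboxylate transporters move protons across the membrane, and SLC4A2 and SLC4A4 move bicarbonate. CA9, CA12 and SLC16A3 are known for their link to hypoxia, whereas CA2 and SLC9A4 are known from the acid-secreting parietal cells of the stomach. Of the hypoxia-linked genes, only CA12 could be set beside CA2 and SLC9A4.

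The arrays had 24526 probes with 46.1% to 55.6% detected on HumanRef-8 and 47323 probes with 33.6% to 36.1% detected on HumanHT-12, where detected means a detection p under 0.01. Of the epithelial markers, 4 of 4 were detected on all 9 arrays. Of 6 markers of blood, stromal and endothelial cells, 4 (PTPRC, CD3E, COL1A2 and VWF) were detected on no array and none on all 9. COL1A1 was detected on 5 of 5 HIF-KD and 3 of 4 Scrambled arrays, and PECAM1 on 2 of 5 and 1 of 4. The summed log2 level of that list ran from 39.4 to 40.4 in HIF-KD samples and from 39.2 to 40.3 in Scrambled samples. Most of its probes were detected on no array, so this sum is largely background. HIF1A, the target of the hairpin, measured 6.35, 5.33 and 5.95 in HIF-KD replicates 1, 2 and 3 and 9.02, 7.57 and 7.97 in Scrambled replicates 1, 2 and 3 on the normalized log2 scale. The groups did not overlap, and HIF1A fell by 2.31 on the log2 scale (SE 0.16, n = 3, limma adjusted p = 0.0054), or 4.96-fold. Without replicate 1 HIF1A fell by 2.13 with a limma adjusted p of 0.117. A second probe fell by 2.10 (SE 0.15, limma adjusted p = 0.0054), with an adjusted p of 0.121 without replicate 1.

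The 9 members gave 7 probes common to both array versions, of which 5 passed the filter on dim probes, and 3 probes on HumanHT-12 only. No common member probe was called by limma at an adjusted p under 0.05 (0 of 5), where 0.109% of the 14686 tested probes were called. None of the 5 had an unadjusted p under 0.05, against 3.43% of all tested probes higher and 3.89% lower in HIF-KD cells. None was called by the rebuilt rank rule, which keeps probes whose 3 differences share their direction and each rank among the largest 10% of that replicate, and which called 0.817% of the probes. On HumanHT-12 only, a call needed a log2 difference of at least 1, no overlap between the arrays of the lines and detection on every array of the higher line. CA2 and SLC9A4 were 2 of 10 probes called lower in HIF-KD cells (0.0439% of 22798), and another 10 probes (0.0439%) were called higher. That contrast chose both genes, so their count there is a description.

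**Figure D1:**
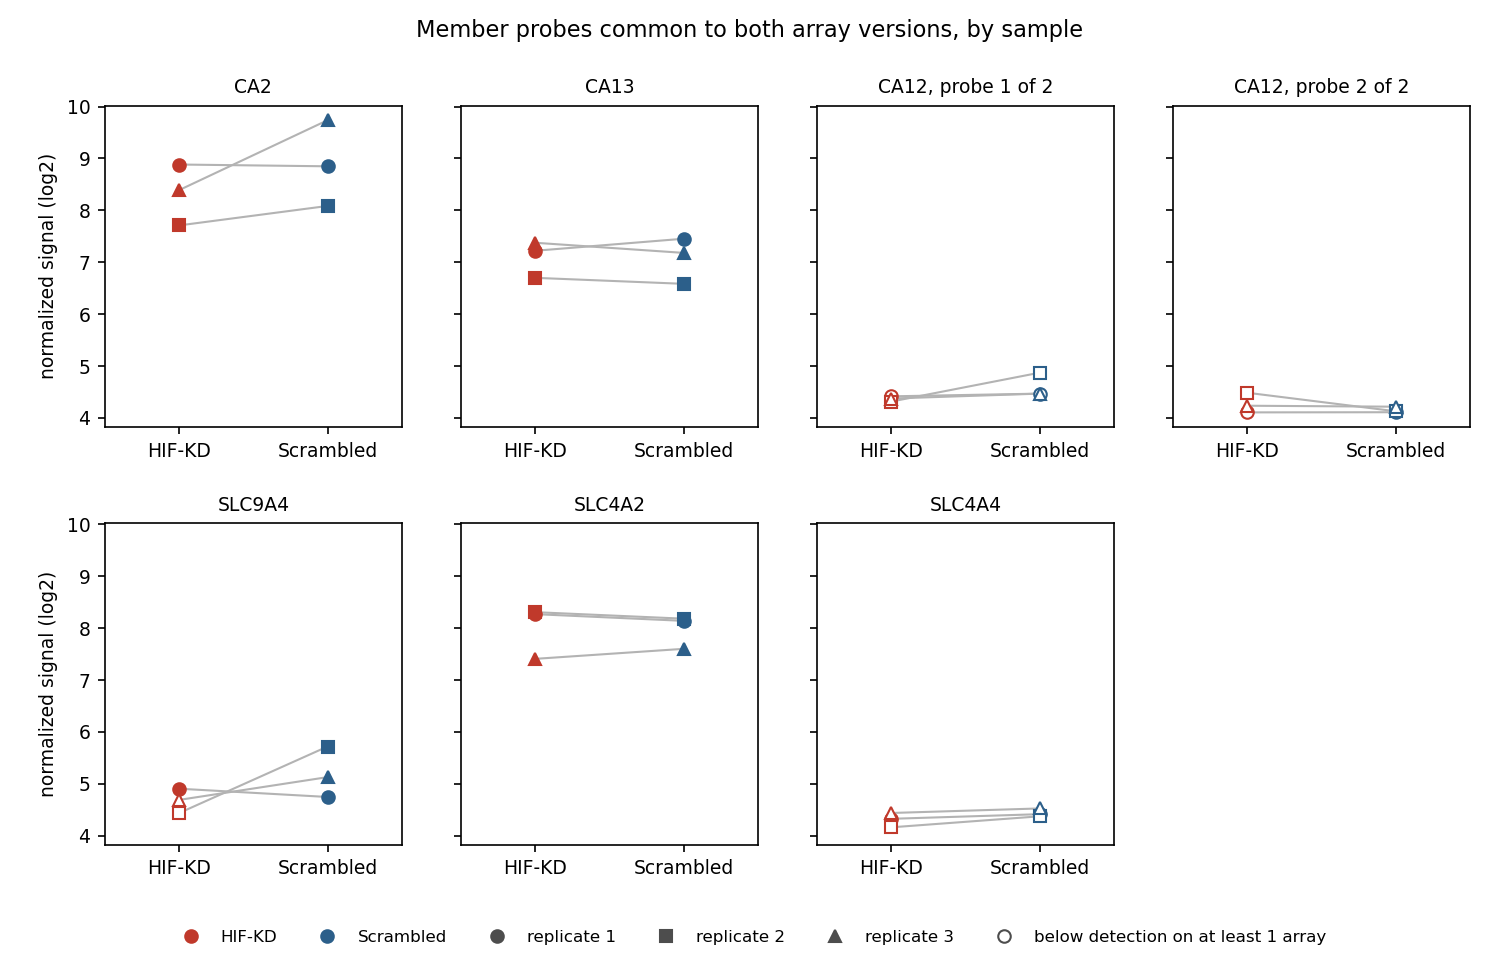
Normalized log2 signal (vertical axis) of the 7 member probes common to both array versions, in the 3 HIF-KD samples (red, left) and the 3 Scrambled samples (blue, right), with grey lines joining the same replicate. Open symbols mark samples with at least 1 array below detection. CA2 is lowest against its partner in replicate 3 and SLC9A4 in replicate 2, and every CA12 and SLC4A4 symbol is open.

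CA2, a fast cytosolic carbonic anhydrase, had a common probe (ILMN_2199439) detected on all 9 arrays. Its level was 8.88, 7.71 and 8.39 in HIF-KD replicates 1, 2 and 3, against 8.85, 8.08 and 9.74 in Scrambled replicates 1, 2 and 3. The groups overlapped. The Scrambled sample of replicate 3 was the highest of the 6, though its array version was normalized apart from that of replicates 1 and 2. HIF-KD minus Scrambled came to 0.03, -0.37 and -1.35 in replicates 1, 2 and 3, so the replicates did not share a sign. The mean difference was -0.56 (SE 0.25, n = 3, 95% interval -1.14 to 0.016, limma adjusted p = 0.686). In replicates 1 and 2, which did not enter the choice of CA2, it was -0.17 (SE 0.20, limma adjusted p = 0.830), where 0.034% of probes were called.

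CA2 had another probe on HumanHT-12 only (ILMN_1662795), and its difference in replicate 3 is given as a description. The 3 HIF-KD arrays measured 8.96, 9.61 and 9.52 and the 2 Scrambled arrays 10.56 and 10.61. The HIF-KD arrays all lay below the Scrambled arrays, with a difference of -1.22, or 2.33-fold lower. On the same arrays the common probe measured 7.86, 8.85 and 8.46 in HIF-KD cells and 9.76 and 9.71 in Scrambled cells, with a difference of -1.35, so the probes differed by 0.12 in their log2 difference. The HIF-KD technical arrays of CA2 scattered with an SD of 0.50 on the common probe and 0.35 on the other, where the median over probes was 0.088. Within replicate 3, both CA2 probes were thus lower in HIF-KD cells by more than the spread between technical arrays, which do not replicate the condition.

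CA13, a cytosolic carbonic anhydrase whose gene lies near CA2 on chromosome 8, with CA1 and CA3 between them (gene order of GRCh38.p14), was detected on all 9 arrays. It measured 7.22, 6.70 and 7.37 in HIF-KD replicates 1, 2 and 3 and 7.45, 6.58 and 7.18 in Scrambled replicates 1, 2 and 3. The groups overlapped throughout, and in replicate 3, where CA2 was lower in HIF-KD cells, CA13 differed by 0.19 in the other direction. The mean difference was 0.03 (SE 0.14, n = 3, 95% interval -0.30 to 0.35, limma adjusted p = 0.964). CA1 and CA3, a pair of cytosolic carbonic anhydrases, did not pass the filter on dim probes.

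CA12, a membrane carbonic anhydrase with its active site outside the cell, had 2 common probes, and neither was detected on any of the 9 arrays. The probe that passed the filter (ILMN_1720998) measured 4.42, 4.32 and 4.37 in HIF-KD replicates 1, 2 and 3 and 4.47, 4.87 and 4.47 in Scrambled replicates 1, 2 and 3. These signals were not above background in either line, so no fold is given (limma adjusted p = 0.714). The second probe (ILMN_2382942) lay between 4.11 and 4.48 in HIF-KD samples and between 4.11 and 4.22 in Scrambled samples. At this signal over background a fall of CA12 was not detectable, and any rise in HIF-KD cells stayed below detection.

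SLC9A4, a basolateral sodium-proton exchanger needed for normal gastric acid secretion in mice, had a dim common probe (ILMN_2112730) detected on 2 of 5 HIF-KD arrays and 4 of 4 Scrambled arrays. It measured 4.91, 4.44 and 4.69 in HIF-KD replicates 1, 2 and 3 and 4.75, 5.72 and 5.13 in Scrambled replicates 1, 2 and 3. The groups overlapped, since HIF-KD was above Scrambled in replicate 1 and below it in the other replicates. The HIF-KD signal was below detection in replicate 2 and on 2 of 3 arrays of replicate 3, so the differences there are against a signal near background. The differences were 0.16, -1.28 and -0.44 in replicates 1, 2 and 3, with a mean of -0.52 (SE 0.25, n = 3, 95% interval -1.11 to 0.067, limma adjusted p = 0.691). In replicates 1 and 2, which did not enter the choice of the gene, the difference was -0.56 (SE 0.32, limma adjusted p = 0.711). With the values processed by the authors it was -0.14 there (limma adjusted p = 0.859).

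On HumanHT-12 only, a brighter SLC9A4 probe (ILMN_1701975) was detected on all 5 arrays. It measured 5.17, 5.41 and 5.33 on the HIF-KD arrays and 7.28 and 7.06 on the Scrambled arrays. The arrays of the lines lay well apart, with a difference of -1.87, or 3.66-fold lower in HIF-KD cells. The common probe gave -0.44 on the same arrays, where 1 of 3 HIF-KD arrays was detected, so the probes of SLC9A4 differed by 1.43 in their log2 difference. Across 824 genes with 1 common and 1 HumanHT-12-only probe, both detected on both Scrambled arrays, the median of that gap was 0.0988 and its 95th percentile was 0.349. A gap at least as large as that of CA2 was seen in 346 of the 824. The HumanHT-12-only difference chose SLC9A4 and its common probe was near background in HIF-KD cells, so its gap is a description with no rank.

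**Figure D2:**
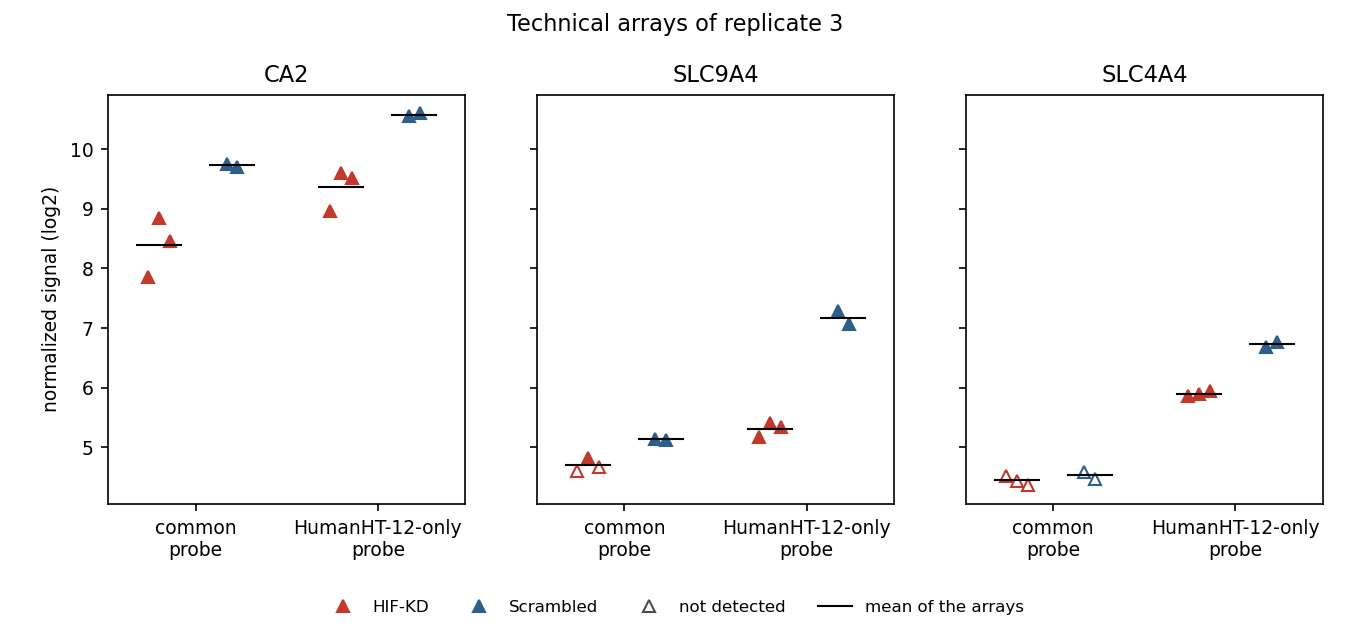
Normalized log2 signal (vertical axis) on each technical array of replicate 3 for the common probe and the HumanHT-12-only probe of CA2, SLC9A4 and SLC4A4, with the HIF-KD arrays (red) left of the Scrambled arrays (blue), black lines at the mean of the arrays and open symbols for arrays below detection. All 3 HumanHT-12-only probes are lower on every HIF-KD array, and the distance of the lines is alike on the 2 CA2 probes and unlike on the 2 SLC9A4 probes.

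The promoters of SLC9A4 and CA12 are shown because the first had the largest difference of the member probes in replicate 3 and the second is the hypoxia-linked member with a named probe. HIF-1 binds DNA at a short core, ACGTG or GCGTG, on either strand. The windows run from 250 bases before to 50 bases after the RefSeq gene start (GRCh38.p14, 5′ to 3′ on the gene's strand), with chr2:102472976-102473275 (plus strand) for SLC9A4 and chr15:63381797-63382096 (minus strand) for CA12, and capitals mark either core.
SLC9A4: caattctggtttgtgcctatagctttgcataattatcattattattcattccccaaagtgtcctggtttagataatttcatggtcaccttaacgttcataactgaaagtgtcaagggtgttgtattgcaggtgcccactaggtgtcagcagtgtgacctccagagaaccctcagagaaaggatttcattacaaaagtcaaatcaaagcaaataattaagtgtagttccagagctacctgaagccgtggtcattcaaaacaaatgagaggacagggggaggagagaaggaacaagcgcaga
CA12: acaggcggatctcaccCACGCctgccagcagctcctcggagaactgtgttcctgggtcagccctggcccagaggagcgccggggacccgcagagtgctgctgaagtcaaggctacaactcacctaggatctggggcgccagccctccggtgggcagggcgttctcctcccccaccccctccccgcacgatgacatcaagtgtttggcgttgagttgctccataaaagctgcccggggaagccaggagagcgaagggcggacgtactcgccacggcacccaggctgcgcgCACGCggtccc
The SLC9A4 window held neither core, and the CA12 window held 2 GCGTG cores on the opposite strand and no ACGTG core. Of 35116 promoter windows of this length, 36.5% held GCGTG and 21.4% held ACGTG, with both strands searched. The other members with an entry were SLC4A2, SLC4A4, CA9 and SLC16A3. GCGTG stood in 4 of 4 windows of SLC4A2, 2 of 5 of SLC4A4, 0 of 1 of CA9 and 2 of 5 of SLC16A3. ACGTG stood in 2 of 4 windows of SLC4A2, 0 of 5 of SLC4A4, 1 of 1 of CA9 and 1 of 5 of SLC16A3.

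SLC4A2, a basolateral chloride-bicarbonate exchanger, was detected on all 9 arrays. It measured 8.27, 8.31 and 7.41 in HIF-KD replicates 1, 2 and 3 and 8.14, 8.18 and 7.60 in Scrambled replicates 1, 2 and 3. The groups overlapped. The samples of replicate 3 were the lowest in both lines, but their array version was normalized apart, so this is not read as a difference between samples. The mean difference was 0.02 (SE 0.13, n = 3, 95% interval -0.29 to 0.33, limma adjusted p = 0.972).

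SLC4A4, a sodium-bicarbonate cotransporter, had a common probe (ILMN_2184556) that was detected on no array and did not pass the filter. Its HumanHT-12-only probe (ILMN_1734897) was detected on all 5 arrays of replicate 3 and measured 5.85, 5.90 and 5.94 in HIF-KD cells and 6.68 and 6.77 in Scrambled cells. The arrays of the lines did not overlap, with a difference of -0.83, or 1.77-fold lower in HIF-KD cells. That is just outside the threshold of 1, and CA2 at -1.22 is just inside it.

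**Figure D3:**
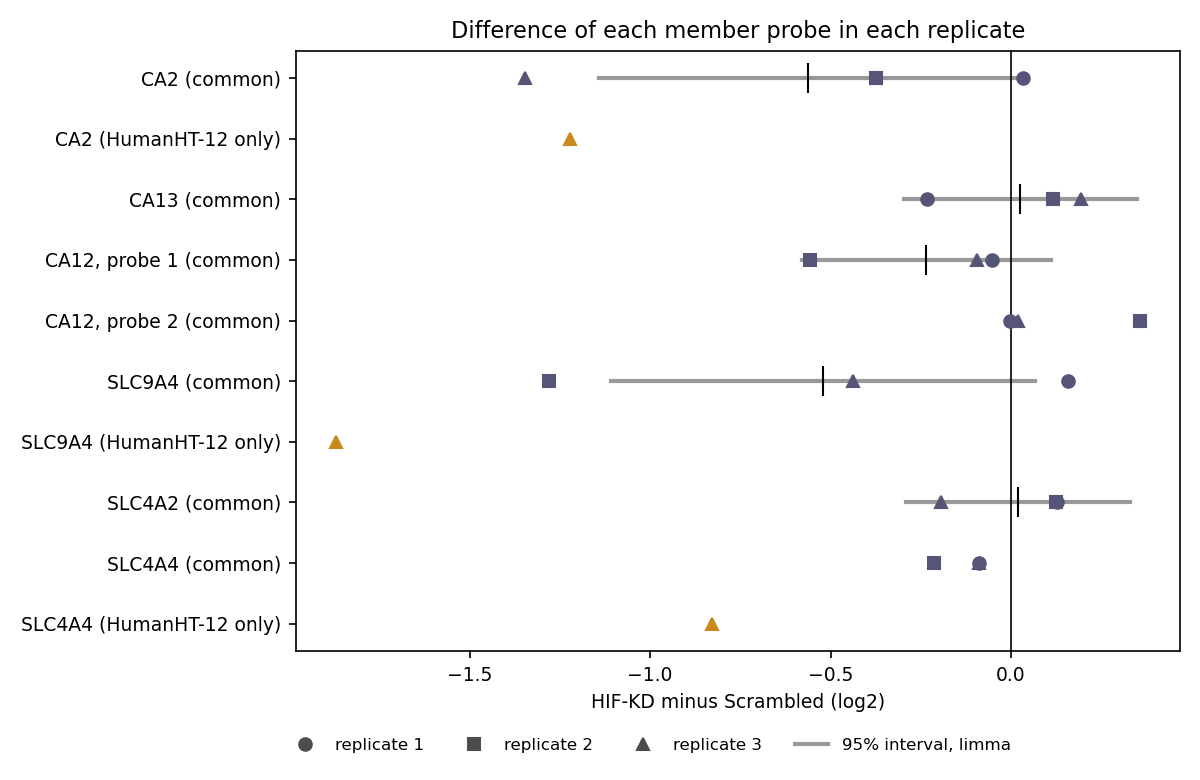
HIF-KD minus Scrambled on the log2 scale (horizontal axis) for each member probe (rows), with 1 symbol per replicate, black ticks for the mean of 3 replicates and grey bars for the 95% interval of limma on the 5 tested probes. The symbols of CA2 and SLC9A4 run from above 0 to below -1, whereas those of CA13 and SLC4A2 lie within 0.3 of 0.

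The replicates of CA2 and SLC9A4 differed more than those of CA13 and SLC4A2. This is given as a description, since replicate 3 chose both genes and the SLC9A4 probe was near background in HIF-KD cells. The widest SLC9A4 difference was that of replicate 2 (-1.28), where the HIF-KD signal was below detection. With the values processed by the authors, the SLC9A4 mean over replicates 1 and 2 was -0.14 in place of -0.56. The SD of the difference over the 3 replicates was 0.709 for CA2 and 0.724 for SLC9A4, against 0.227 for CA13, 0.185 for SLC4A2 and a median of 0.220 over all tested probes.

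The other acid-base genes were taken from 5 lists, and limma called 0 of their tested probes at an adjusted p under 0.05 (0.109% over all tested probes). Their counts at an unadjusted p under 0.05 stand beside 3.89% lower and 3.43% higher over all tested probes. Among sodium-proton exchangers and their partners, 1 of 7 probes was called lower by the rank rule, which called 0.817% of all tested probes in either direction. The same probe had the 1 unadjusted p under 0.05 of the list. This was SLC9A2, a sodium-proton exchanger of gastric and intestinal epithelium, detected on all 9 arrays. It measured 7.76, 8.04 and 7.75 in HIF-KD replicates 1, 2 and 3 and 8.90, 8.54 and 8.73 in Scrambled replicates 1, 2 and 3. The lines did not overlap, with differences of -1.14, -0.50 and -0.99 and a mean of -0.87 (SE 0.16, n = 3, limma adjusted p = 0.156). The list's median difference was -0.07, beside -0.0053 over all tested probes.

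Of the list of bicarbonate and anion transporters, which also held AHCYL1 and AHCYL2, 12 probes were tested. Of these, 3 were lower and 1 was higher at an unadjusted p under 0.05 (3.89% and 3.43% over all tested probes). The median difference was -0.19. The lower probes, named here from their values, were those of CFTR, an anion channel that passes chloride and bicarbonate (-0.37, SE 0.13), and of the anion transporters SLC26A2 (-0.46, SE 0.14) and SLC26A9 (-0.36, SE 0.13). The higher probe was that of SLC4A11, a membrane transporter of the SLC4 family (0.32, SE 0.13). None passed the adjustment (limma adjusted p between 0.525 and 0.649), and CFTR and SLC4A11 were the ones among them detected on all arrays. The SLC26A9 probe was detected on 2 of 5 HIF-KD and 3 of 4 Scrambled arrays. Other common probes of SLC26A9 were detected on no array and did not pass the filter.

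Among 6 tested probes of monocarboxylate transporters and their chaperones, 1 was higher at an unadjusted p under 0.05 and none lower, with a median of 0.03. It was that of SLC16A4, named from its values, with differences of 0.51, 0.66 and 0.58 (limma adjusted p = 0.226). SLC16A4 was detected on 3 of 5 HIF-KD arrays and on 0 of 4 Scrambled arrays. SLC16A5, also of this family and detected on all arrays, differed by 0.22 (SE 0.14, limma adjusted p = 0.714).

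Of 24 tested probes of proton pumps, 1 was higher and 2 were lower at an unadjusted p under 0.05, with a median of 0.09. ATP6V1F, a subunit of the vacuolar proton pump, differed by 1.40, 0.30 and 0.07 in replicates 1, 2 and 3 (limma adjusted p = 0.677). ATP6AP2, an accessory protein of that pump, differed by -0.36 (SE 0.13, limma adjusted p = 0.610), and 1 of 2 probes of the subunit ATP6V1C1, named from its values, by -0.40 (SE 0.13, limma adjusted p = 0.564). That ATP6V1C1 probe was detected on 1 of 5 HIF-KD and 1 of 4 Scrambled arrays, and the other, detected on all 9, differed by -0.19 (SE 0.13, limma adjusted p = 0.714). The remaining carbonic anhydrases gave 4 tested probes with a median of 0.06 and none with an unadjusted p under 0.05, and 7 of the 11 genes of that list were detected on no array.

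**Figure D4:**
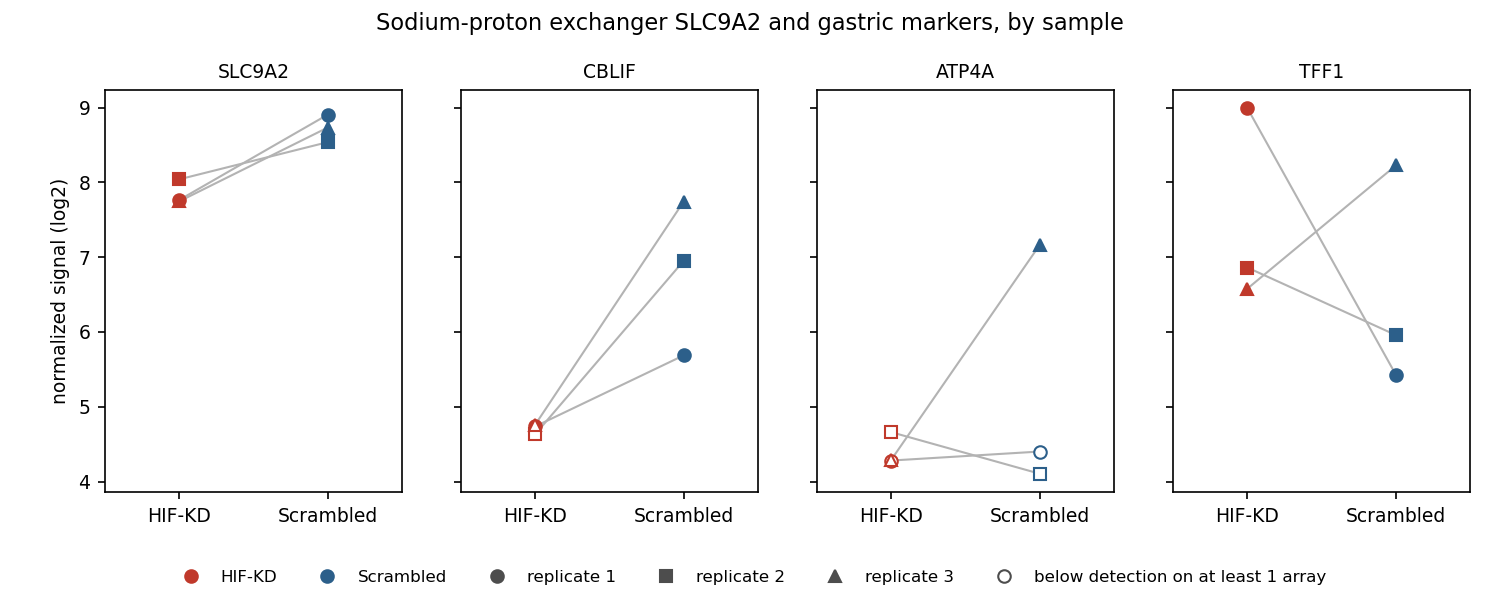
Normalized log2 signal (vertical axis) of SLC9A2, CBLIF, ATP4A and TFF1 in the 3 HIF-KD samples (red, left) and the 3 Scrambled samples (blue, right), with grey lines joining the same replicate and open symbols for samples with at least 1 array below detection. SLC9A2 and CBLIF are lower in HIF-KD cells in every replicate, ATP4A is above detection only in Scrambled cells of replicate 3, and TFF1 changes sign between replicates.

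Of 4 tested probes of the gastric markers, limma called 0 and the rank rule called 1 lower, and 0 of 5 HumanHT-12-only probes were called. Over all tested probes limma called 0.109% and the rank rule 0.817%, both directions together. Of all HumanHT-12-only probes, 0.0439% were called lower and 0.0439% higher. ATP4A, CBLIF and TFF1 are named from their values. The remaining tested probe, that of TFF2, differed by 0.74, -0.16 and -0.09 in replicates 1, 2 and 3 (limma adjusted p = 0.817). TFF2 was detected on 2 of 5 HIF-KD and 0 of 4 Scrambled arrays. GKN1, which did not pass the filter on dim probes, was detected on 1 of 5 HIF-KD and 0 of 4 Scrambled arrays. ATP4A, the catalytic subunit of the gastric proton pump, was detected on 0 of 5 HIF-KD arrays and on 2 of 4 Scrambled arrays, both of replicate 3. In replicate 3 it measured 4.26, 4.36 and 4.26 on the HIF-KD arrays and 7.15 and 7.18 on the Scrambled arrays. Set against the lowest detected signal of each HIF-KD array, this was at least 5.09-fold lower in HIF-KD cells, with 1 biological sample per line. In replicates 1 and 2 ATP4A was below detection in both lines, with differences of -0.12 and 0.56. Over 3 replicates its limma adjusted p was 0.721. ATP4B, also on the gastric list, was detected on no array by either of its common probes.

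CBLIF, the gastric intrinsic factor, measured 4.74, 4.63 and 4.76 in HIF-KD replicates 1, 2 and 3 and 5.69, 6.95 and 7.74 in Scrambled replicates 1, 2 and 3. CBLIF was detected on 2 of 5 HIF-KD arrays, 1 in replicate 1 and 1 in replicate 3, and on 4 of 4 Scrambled arrays. It was lower in 3 of 3 replicates and called by the rank rule (limma adjusted p = 0.122), and no fold is given since most HIF-KD arrays were below detection. TFF1, a secreted peptide of the gastric surface, differed by 3.56, 0.90 and -1.65 in replicates 1, 2 and 3 (limma adjusted p = 0.750). The gastric list had 8 genes, of which 6 had a common probe and 1 was detected on all arrays, and its summed log2 level ran from 32.9 to 36.0 in HIF-KD samples and from 32.3 to 40.9 in Scrambled samples. In these bulk samples, fewer cells of a type and less RNA per cell cannot be told apart, and the part of these markers in the CA2 and SLC9A4 values was not tested.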

How the data were processed

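Total RNA of AGS cells was hybridized to Illumina BeadChips. Per probe and array, the authors deposited a log2 signal, not normalized between arrays, and a detection p-value. They also deposited processed log2 values, quantile-normalized within each replicate (RMA and beadarray are named in the methods), which served as an alternative. The genome build is not given in the sources used here. Signals and processed values of an array ranked its probes alike (Spearman correlation 1), and different arrays correlated at 0.970 or below, so no array was present 2 times. A swap of labels carried through both sets of values would not show in these correlations. No column of another series' sample was present (0).

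Deposited log2 signals were returned to the linear scale, background-corrected from the detection p-values (nec, offset 16), quantile-normalized within each array version and log2-transformed (limma 3.58.1, R 4.3.3). After averaging technical arrays, the versions were joined on 24525 shared probes. Each probe was kept on its own, and 9839 were discarded because in all 6 samples they lay under the array median. Gene symbols came from the platform annotation, with 1 symbol for 22317 of the common probes and 7932 of the 22798 HumanHT-12-only probes. The lines were compared in limma (lmFit, then eBayes without trend, 2 residual and 5.24 prior degrees of freedom), blocking on replicate, with Benjamini-Hochberg adjustment over all 14686 tested probes. The fit of replicates 1 and 2 had 1 residual and 7.15 prior degrees of freedom. The block follows the methods, which compare lines within an experiment. Same-numbered HIF-KD and Scrambled samples deviated together from their group means (correlations 0.623, 0.798 and 0.846), to which the shared array version contributes. In the column headers, both lines of a replicate share a leading number. It differs between replicates, so any batch behind it cannot be told apart from replicate.

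The rank rule of the methods was rebuilt, dividing each difference by a running median absolute deviation over 501 probes, since its error model is cited there and not described. HumanHT-12-only probes had 1 biological sample per line and no test. They were called at a log2 difference of at least 1, no overlap between the arrays of the lines and detection on every array of the higher line. All member probes and HIF1A were named. From the lists, the genes past the rank rule or an adjusted p under 0.05 were named or, where none passed, up to 2 detected on all arrays with the largest mean difference of the same sign in all replicates. Other genes of the lists and markers that the text names were chosen after their values were seen. The members and lists were chosen with earlier results of these data known. The fit and the rank rule were run on simulated data with known differences. Wide spreads were capped in that run, so it does not cover probes as variable as those of CA2 and SLC9A4. Motifs were searched in RefSeq promoters (Python 3.11.15), and figures were drawn with matplotlib 3.10.9. Arrays give no read depth, and their number limits the precision.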

Additional observations from a re-analysis of the deposited data

How the results depend on the processing

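The count of member probes called stayed at 0 for limma over 3 replicates, for limma in replicates 1 and 2 and for the rank rule. The difference of CA2 ranged from -0.86 to -0.17 over 15 alternatives (limma adjusted p 0.458 to 1), with -0.17 without replicate 3, and that of SLC9A4 from -0.86 to -0.14 (0.579 to 1), with -0.14 without replicate 2. CA13 and SLC4A2, both near 0, changed sign. With scaling to a common median they were -0.035 and -0.048, and SLC4A2 was -0.018 with the first technical array only. Leaving out 1 replicate gave -0.058 to 0.155 for CA13, with -0.018 without replicate 2 and -0.058 without replicate 3, and -0.034 to 0.127 for SLC4A2, with -0.034 without replicate 1 and -0.032 without replicate 2. The cause was not tested. Without background correction, the HumanHT-12-only difference of SLC9A4 was -1.63 and that of SLC4A4 -0.73. At a log2 difference of at least 0.5, SLC4A4 joined CA2 and SLC9A4, so 3 members were called in place of 2.

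Counts over all tested probes moved more. Against 16 probes called by limma, 1 was called with a nec offset of 50, 54 after median scaling, 0 when dim probes were kept (24525 tested), 10 with the first technical array only and between 0 and 11 with 1 replicate left out. Without the replicate block, 2 were called with the array version as a covariate and 1 with no array version and all arrays normalized together, and no member changed its call. The methods' t-test called 0 probes after adjustment and 139 before it. The first HIF1A probe also missed the threshold with the nec offset of 50 (limma adjusted p = 0.0653), with no filter (0.506) and without the block (1). The rank rule called 71 probes at the top 5% and 79 with the first technical array only, against 120. HumanHT-12-only calls numbered 13 with no background correction, 13 with the authors' processed values and 140 at a log2 difference of at least 0.5, against 20. Signal over background limits CA12, the common probe of SLC4A4 and the common probe of SLC9A4.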
